A study of Mus musculus with 2 samples.

Results

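The 10 genes described here are ligands and receptors of the tumor necrosis factor (TNF) superfamily, chosen by name: the 5 ligands Tnf, Tnfsf4 (OX40L), Tnfsf8 (CD30L), Tnfsf11 (RANKL) and Cd40lg, and the 5 receptors Cd40, Tnfrsf4 (OX40), Tnfrsf9 (4-1BB), Tnfrsf18 (GITR) and Tnfrsf1b (TNFR2). All 10 were among the 27998 genes counted. They were measured by single-cell RNA-seq in 1 library of healthy control ear skin and 1 library of ear skin with allergic contact dermatitis (ACD), both from ICR mice of 7 to 8 weeks. ACD was induced by sensitizing the back with 1.0% of the hapten DNFB and eliciting the ear with 0.2% DNFB on day 6, and the skin was taken at 60 hr, whereas the control library came from mice labelled only as healthy. ICR is an outbred stock, no transgene or deletion is given for either group, and the labels do not say how many animals went into a library. Skin was digested with collagenase D and DNase1, and dead cells were removed before loading.

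TNF superfamily ligands are made mostly as membrane proteins that bind clustered receptors on a neighboring cell. Receptors of this family recruit TRAF adaptors and switch on NF-κB, and some also carry a death domain. OX40, 4-1BB and GITR act as costimulatory receptors of activated T cells and are carried by regulatory T cells (Tregs), whereas CD40 on antigen-presenting cells receives the CD40 ligand of helper T cells. In skin, TNF is a product of Langerhans cells, mast cells and activated T cells, and RANKL supports Langerhans cells.

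The genes lie on chromosomes 1, 2, 4, 14, 17 and X of GRCm38, and 5 of them (Tnfsf8, Tnfrsf4, Tnfrsf9, Tnfrsf18 and Tnfrsf1b) are on chromosome 4. Tnfrsf4 (ENSMUSG00000029075, chr4:156013843-156016612, plus strand) and Tnfrsf18 (ENSMUSG00000041954, chr4:156026164-156028895, plus strand) are neighbors with 9551 bases and 0 other protein-coding genes between them. Tnfrsf9 (ENSMUSG00000028965) spans chr4:150914562-150946102 on the plus strand. Tnf (ENSMUSG00000024401) spans chr17:35199381-35202007 on the minus strand. The annotation has 0 genes on the same strand that overlap a member, and 1 gene each on the other strand at Tnfrsf9 (Camta1) and at Tnfrsf18 (Gm16008).

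RefSeq promoters of GRCm38.p6 were at hand for 7 of the 10 genes, Tnfrsf9 with 2 start sites, and 3 motifs were searched on both strands of the 250 bases before each start: the NF-κB consensus, the AP-1 motif TGANTCA and the STAT motif TTCNNNGAA. These 3 motifs are held by 7.25%, 6.75% and 7.02% of 32851 promoters of the same length. The NF-κB consensus and TGANTCA were each found in 1 of the 7 genes, Tnfrsf9, at its second start only, 43 and 15 bases before that start. TTCNNNGAA was found in 3 genes, Tnfrsf9 (second start, 136 bases before it), Tnfrsf18 (99 bases) and Tnfrsf1b (181 bases). Of the 250 bases, 158 overlap annotated exons at Tnfrsf18, 166 at Tnfrsf4, 81 at the second Tnfrsf9 start and 63 at Tnfsf8. The Tnfrsf18 window (chr4:156026072-156026321) runs past the annotated gene start. Matches in these windows may thus lie in an exon. The stretch with the NF-κB match is shown because Tnfrsf9 was past 2-fold higher in ACD in both the Treg and the δγT gate, with capitals for 2 overlapping matches (chr4:150927949-150927978, plus strand). The first Tnfrsf9 start (chr4:150919905-150920154, plus strand) and the Tnf promoter (chr17:35202008-35202257, minus strand) are shown beside it and hold none of the 3 motifs as spelled here.
Tnfrsf9 second start: agcagctGGGGATTTCCCaggaggccctgc
Tnfrsf9 first start: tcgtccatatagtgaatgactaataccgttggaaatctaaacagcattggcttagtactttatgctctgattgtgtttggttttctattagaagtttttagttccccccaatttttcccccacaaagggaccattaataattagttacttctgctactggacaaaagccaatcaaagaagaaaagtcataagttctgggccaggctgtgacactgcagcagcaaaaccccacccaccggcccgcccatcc
Tnf: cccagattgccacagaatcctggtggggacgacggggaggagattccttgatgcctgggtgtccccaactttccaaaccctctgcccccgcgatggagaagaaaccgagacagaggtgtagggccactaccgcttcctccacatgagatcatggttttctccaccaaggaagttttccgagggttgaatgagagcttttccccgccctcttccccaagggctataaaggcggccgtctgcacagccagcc

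The authors deposited counts of unique molecular identifiers (UMIs), which tag single captured transcripts at their 3′ end. After the limits on genes, UMIs and mitochondrial UMIs, 12213 control cells (92188895 UMIs) and 11665 ACD cells (99649023 UMIs) were kept, with medians of 6850 and 7447 UMIs per cell, and 50 barcode sequences occurred in both libraries. T, NK and innate lymphoid (T/NK/ILC-like) cells were 6.83% of control and 28.8% of ACD cells, myeloid classes 1.63% and 7.21%, and resident classes 90.4% and 60.8%. A level is the sum of a gene's UMIs in a class per 1000000 UMIs of that class, written CPM. Ranges in parentheses are exact 95% intervals for counting error only, and levels are compared between classes or libraries, not between genes. With 1 library per group there is no test of ACD against control, and a difference may belong to the 2 libraries rather than to the conditions. A gene was compared in a class with at least 20 cells in each library where at least 5 UMIs were expected in each, and "past 2-fold" names the size of a difference and no test.

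Over all kept cells, each of the 10 genes was past 2-fold higher in the ACD library, where 10.5% of 17395 compared genes were. None was past 2-fold lower, where 3.17% were. Each ligand had a lower log2 ratio than Tnfrsf4 and Tnfrsf9. Tnf was at 9.53 (8.91 to 10.2) CPM in control and 28.4 (27.3 to 29.4) in ACD (log2 ratio 1.57). Tnfsf8 was at 2.45 and 14.1 CPM, Tnfsf11 at 2.16 and 7.92, and Cd40lg at 0.553 and 4.42. Tnfsf4 was nearly undetected, with 7 UMIs in control and 19 in ACD, and its log2 ratio of 1.33 (0.02 to 2.82) rests on those.

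Tnfrsf4 was at 4.07 CPM in control and 67.8 in ACD (log2 ratio 4.06, 3.91 to 4.21). Tnfrsf9 was at 2.04 and 31.8, a log2 ratio of 3.96 (3.75 to 4.18). The other 3 receptors had smaller ratios: Tnfrsf18 was at 8.07 and 46.2 CPM, Tnfrsf1b at 5.81 and 27.3, and Cd40 at 1.10 and 4.04. Of the 48 other genes of the pathway fixed for this report, 45 could be compared, of which 15 were past 2-fold higher and 1 lower, with a median log2 ratio of 0.11 against -0.05 for all genes compared. Apart from the direct binding partners described further on, the largest ratios among them were those of Fasl, the ligand of the death receptor Fas (0.228 and 8.12 CPM), Cd70, the ligand of CD27 (0.141 and 1.24), and Traf1, an adaptor of TNF receptors (7.86 and 65.1). Eda, the ligand of the ectodysplasin receptor, was the 1 gene past 2-fold lower (10.7 and 4.59 CPM).

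The UMIs of these genes sat in different cells. T/NK/ILC-like cells of the ACD library held 90.0% of the Cd40lg UMIs, 87.7% of Tnfsf8, 86.2% of Tnfrsf4, 85.1% of Tnfrsf9, 83.5% of Tnfsf11, 80.3% of Tnfrsf18, 74.5% of Tnfrsf1b and 61.4% of Tnf, but 5.46% of Cd40. Myeloid classes held 26.0% (24.4 to 27.6) of the ACD Tnf UMIs and 54.1% (49.1 to 59.0) of the Cd40 UMIs. In control, resident classes held 62.4% of the Cd40 UMIs, 45.2% of Tnfrsf18 and 34.7% of Tnfrsf4, against 35.5%, 10.4% and 4.78% in ACD. These control shares came from few cells with the gene in a library that was mostly resident cells.

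**Figure D1:**
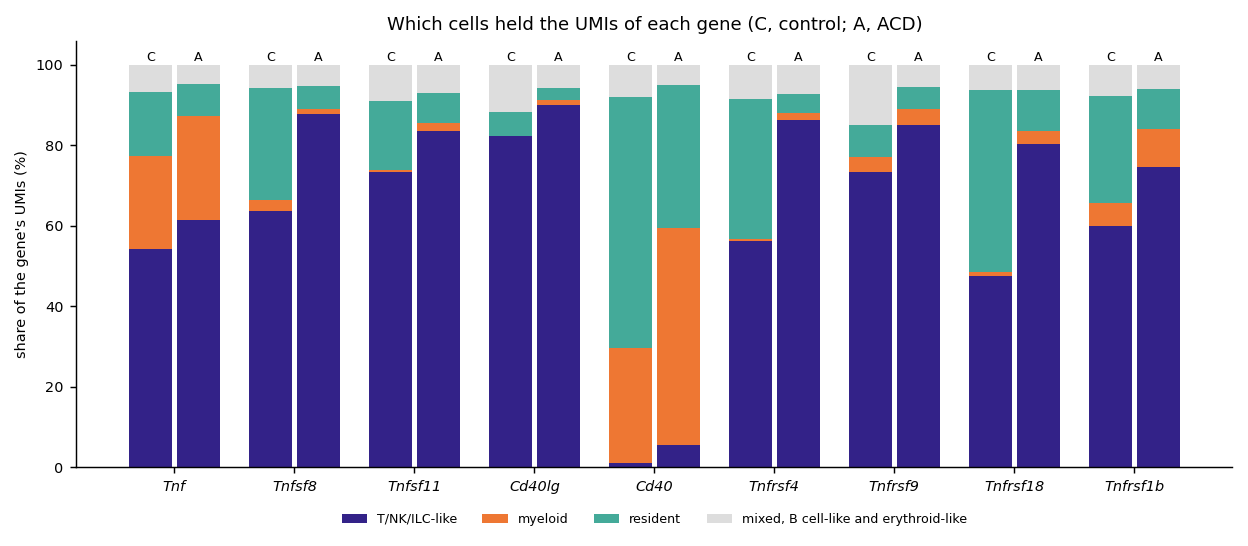
Share (%) of each gene's UMIs held by T/NK/ILC-like, myeloid, resident and other cells, with control (C) and ACD (A) bars side by side for 9 genes and Tnfsf4 left out for its few UMIs. The T/NK/ILC-like share is larger in ACD for each gene plotted, and Cd40 is the gene held mainly by myeloid and resident cells in both libraries.

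Since the libraries differed in the kinds of cells they held, the ACD level of each class was also weighted by the class shares of the control library. Tnf then came to 9.52 CPM, against 9.53 measured in control, a log2 ratio of -0.00. Tnfsf11 came to a log2 ratio of -0.17, Tnfsf8 to 0.36, Tnfrsf1b to 0.44, Cd40lg to 0.55 and Tnfrsf18 to 0.61. Only Cd40 (1.39), Tnfrsf4 (1.58) and Tnfrsf9 (1.62) stayed past 2-fold higher among the 9 genes with enough UMIs. This weighting leaves differences of make-up inside a class in place. In dermal fibroblast-like cells, 91 ACD Cd40 UMIs lay in a cluster of 6 control and 557 ACD cells. Cd40 was not higher in ACD in the other clusters of that class, on 1 to 4 ACD UMIs each. Inside T/NK/ILC-like cells, the gated subsets and the cells that met no gate were weighted by their control shares. This lowered the log2 ratio of Tnfrsf4 from 2.14 to 1.43 and that of Tnfrsf9 from 1.64 to 1.15. Cells that met no gate held 46.8% of the control UMIs there, so they weigh heavily in these ratios. Their own make-up differed, with Eomes at 0 CPM in control and 64.8 in ACD, and Ncr1 at 1.90 and 67.2. How far that enters the weighted ratios was not tested. The weighted Tnf level near that of control joined classes that went different ways. In T/NK/ILC-like cells at control gate shares its log2 ratio was -0.49. Without weighting, Tnf was at 229 CPM in control and 162 in ACD over all myeloid classes, and at 1.63 and 3.25 over all resident classes. Both totals mix classes in unlike shares, with 9 basophil-like cells in control and 269 in ACD. Within Langerhans-like, mast cell-like and DC-like cells, described further on, Tnf differed little between the libraries.

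**Figure D2:**
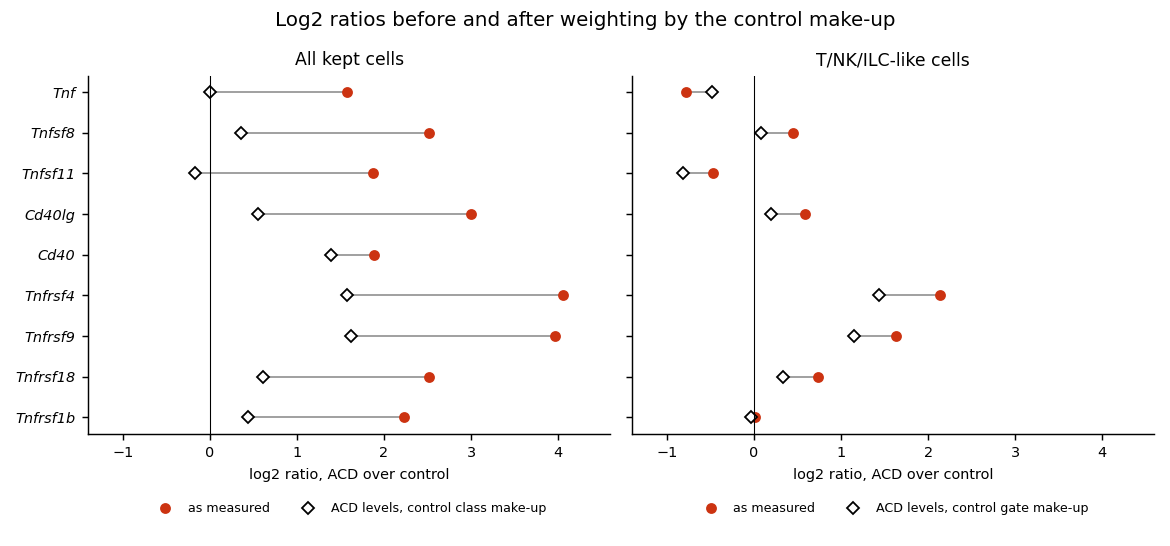
Log2 ratio of ACD over control for 9 genes in all kept cells (left) and for 8 of them in T/NK/ILC-like cells (right), as measured (red circles) and with the ACD levels weighted by the control make-up (open diamonds). The diamond of Tnf sits at 0 on the left and below 0 on the right, and the diamonds of Tnfrsf4 and Tnfrsf9 stay above 1 in both panels.

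Within T/NK/ILC-like cells as a whole, 2 of the 8 members compared were past 2-fold higher (Tnfrsf4 and Tnfrsf9) and 0 lower, where 5.4% of 10829 genes were higher and 8.26% lower. The median log2 ratio over all genes of this class was -0.14, and the median over genes with at least 50 UMIs in each library was -0.13, so a log2 ratio of 0 lay above that of most genes. That shift was -0.22 in DETC and -0.10 in muscle-like cells. Tnfrsf4 was at 62.5 (54.3 to 71.5) CPM in control and 275 (268 to 282) in ACD, and Tnfrsf9 at 40.9 (34.3 to 48.3) and 127 (122 to 132). Tnf was lower in ACD, at 141 (129 to 154) and 81.9 (78.1 to 85.8) CPM, although its level over all cells was higher. Tnfsf11 was at 43.2 and 31.1, Tnfsf8 at 42.6 and 58.0, Cd40lg at 12.4 and 18.7, Tnfrsf18 at 105 and 174, and Tnfrsf1b at 95 and 95.5. Of 33 other pathway genes compared in this class, 3 were past 2-fold higher (Fasl, Cd70 and Tnfrsf22) and Tnfrsf21 was past 2-fold lower. Fasl was at 5.03 CPM in control and 33.0 in ACD.

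T/NK/ILC-like cells were divided by gates on marker UMIs that hold no member. The CD4 gate held 33 control and 610 ACD cells, the Treg gate 22 and 326, the CD8 gate 14 and 666, the δγT gate 199 and 453, the gate of dendritic epidermal T cells (DETC) 90 and 97, the NK/ILC1 gate 7 and 358 and the ILC2 gate 55 and 41. CD4 and Treg cells together were 6.59% of T/NK/ILC-like cells in control and 27.9% in ACD. A total of 414 control and 804 ACD cells met no gate. The CD8 and NK/ILC1 gates have too few control cells for a ratio, so values alone are given there. The gates are sensitive to their minimum: where each was 1 UMI higher, 45.1% of CD4, 49.7% of Treg, 47.4% of DETC and 53.7% of ILC2 cells in ACD left their gate, against 12.1% to 15.4% in the δγT, CD8 and NK/ILC1 gates. In control, 20 of 33 CD4, 18 of 22 Treg, 38 of 90 DETC and 30 of 55 ILC2 cells then left.

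**Figure D3:**
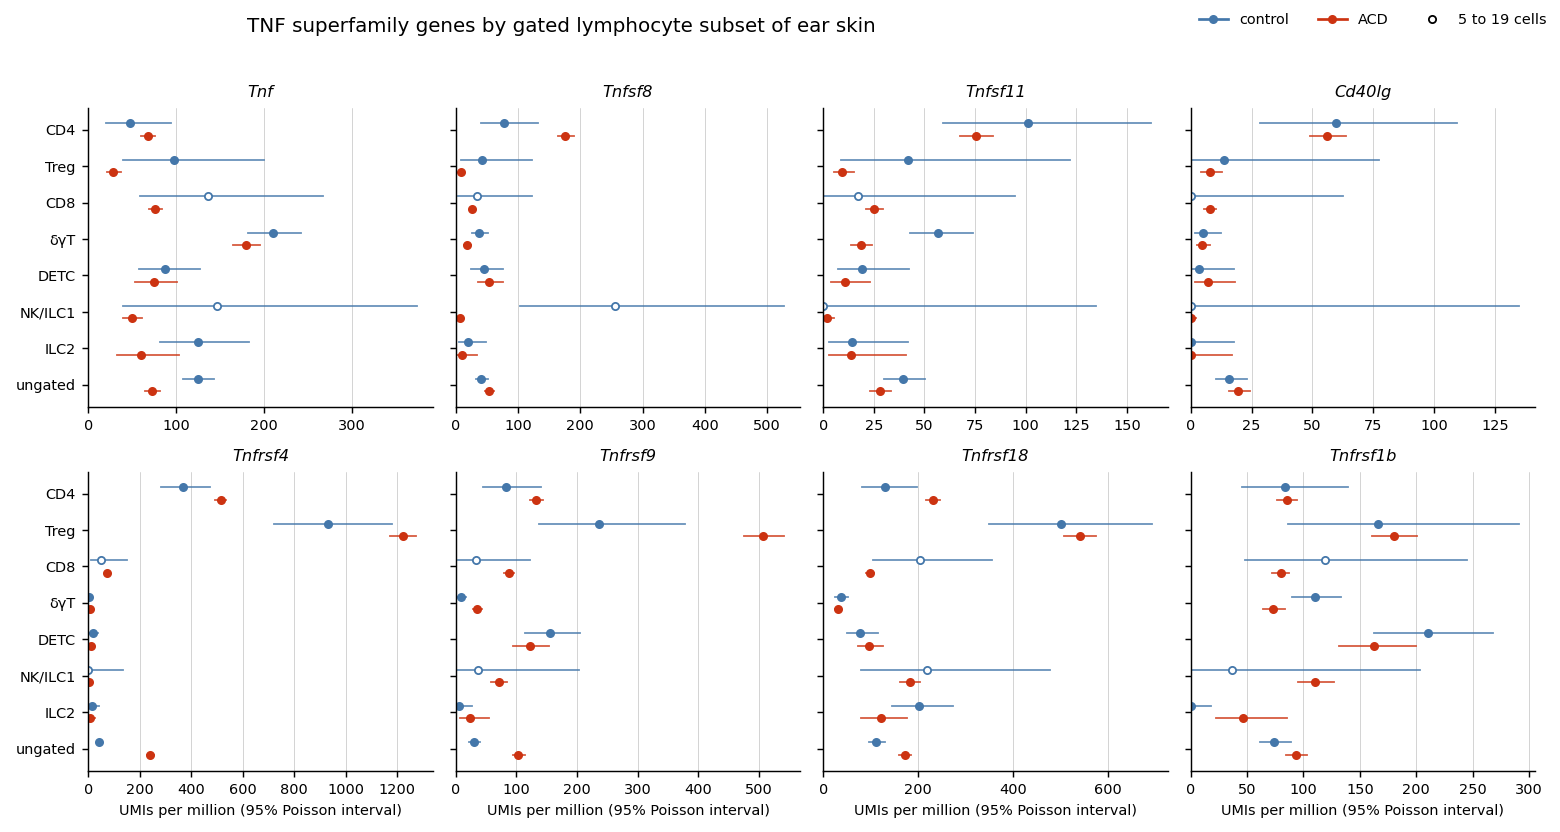
Level (CPM, linear axis) of 4 ligands and 4 receptors in each lymphocyte gate, control in blue and ACD in red, with exact Poisson intervals as lines and open circles for gates of 5 to 19 cells. Among the ACD points, Tnfsf8, Tnfsf11 and Cd40lg are highest in the CD4 gate, Tnfrsf4, Tnfrsf9 and Tnfrsf18 in the Treg gate, and Tnf in the δγT gate.

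The Treg gate had the highest ACD levels of Tnfrsf4, Tnfrsf9 and Tnfrsf18 of any class, each above the next class without overlap of the intervals. Tnfrsf9 was at 236 (137 to 378) CPM in control Tregs and 507 (475 to 541) in ACD Tregs, a log2 ratio of 1.10 (0.42 to 1.89). It was the 1 of 4 members compared there that was past 2-fold higher, where 9.51% of 2135 genes were, and 0 were lower, where 3.79% were. With whole sub-clusters in place of gates (41 and 495 cells) its log2 ratio was 0.72, so it was then not past 2-fold. Tnfrsf4 was at 930 (720 to 1181) and 1223 (1173 to 1275) CPM, and Tnfrsf18 at 500 and 540, so both were already high in the 22 control Tregs. Tnfrsf1b, the TNF receptor known for its role on Tregs, was at 166 and 180 CPM. Tnf was at 97.1 (39.0 to 200) and 28.3 (21 to 37.2) CPM in this gate, on 7 control UMIs. Among the 6 other pathway genes compared, Birc2, Cflar and Cd27 were past 2-fold higher on 3 to 5 control UMIs each.

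In ACD Tregs thinned to 2000 UMIs, Tnfrsf4 was found in 80.1% of 312 cells, Tnfrsf18 in 60.6% and Tnfrsf9 in 48.1%. Without thinning these shares were 91.1%, 84.7% and 66.3%. In chondrocyte-like cells of the same library, which stand for background, the thinned shares were 0.347%, 1.35% and 0.193% of 2591 cells (median depths 9197 UMIs there and 4816.5 in Tregs). Tnfrsf9 was found in 52.0% of Treg cells with a Tnfrsf4 UMI and in 32.3% of those without one. Likewise, Tnfrsf9 was found in 55.6% of Treg cells with a Tnfrsf18 UMI and in 36.6% of those without.

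The CD4 gate was the main holder of 3 ligands. It had 53.5% of the Tnfsf8 UMIs of the ACD library, 54.3% of Cd40lg and 40.7% of Tnfsf11. Tnfsf8, which signals to CD30, was at 77.4 (41.2 to 132) CPM in control and 176 (164 to 189) in ACD (log2 ratio 1.19, 0.40 to 2.10), and 1 ACD cell alone held 44 of its 750 UMIs. It was the 1 of 8 members compared in this gate that was past 2-fold higher, where 6.28% of 3920 genes were, and 0 were lower, where 3.01% were. With whole sub-clusters in place of gates the log2 ratio was 0.55. Cd40lg, the signal of helper T cells to CD40, was at 59.5 and 56.1 CPM, and Tnfsf11 at 101.2 and 75.3.

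Receptors in the CD4 gate were lower than in Tregs. Tnfrsf4 was at 369 (283 to 473) CPM in control and 514 (493 to 536) in ACD, Tnfrsf18 at 131 and 230, Tnfrsf9 at 83.3 and 132, and Tnfrsf1b at 83.3 and 85.2. Hence the 4.40-fold higher Tnfrsf4 level of T/NK/ILC-like cells stood beside log2 ratios of 0.48 in the CD4 gate and 0.40 in the Treg gate. Ungated cells had a larger one, at 42.4 and 241 CPM (log2 ratio 2.51), and there Tnfrsf4 and Tnfrsf9 were the 2 of 8 members past 2-fold higher and 0 were lower, where 6.36% and 7.01% of 9656 genes were. In thinned ACD CD4 cells, Tnfrsf4 was found in 50.7% of 602 cells, Tnfrsf18 in 40.5%, Tnfsf8 in 18.3%, Tnfsf11 in 13.0% and Cd40lg in 10.8%. Tnfrsf18 was found in 49.5% of the cells with a Tnfrsf4 UMI and in 31.3% of the others, and Tnfsf8 in 30.8% of the cells with a Tnfsf11 UMI and in 16.4% of the others. By contrast, Tnfsf8 was found in 18.7% of cells with a Tnfrsf4 UMI and 17.8% of those without.

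CD8 cells were mostly an ACD population, with 666 cells against 14. In ACD, Tnf was at 76.1 CPM, Tnfrsf9 at 87.7, Tnfrsf18 at 98.5, Tnfrsf1b at 79.7 and Tnfrsf4 at 71.7. The control CD8 cells held 8 Tnf, 2 Tnfrsf9, 12 Tnfrsf18, 7 Tnfrsf1b and 3 Tnfrsf4 UMIs. In ACD, 1 CD8 cell held 31 of the 394 Tnfrsf4 UMIs, and the gene was found in 8.80% of thinned cells. Lta, which encodes lymphotoxin α, another ligand of TNFR2, was at 65.2 CPM in ACD CD8 cells and 69.7 in ACD δγT cells.

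δγT cells had the highest Tnf of the T cell gates in both libraries. It was at 210 (182 to 241) CPM in control and 179 (164 to 195) in ACD, and was found in 30.2% and 26.4% of thinned cells. Of the 6 members compared in this gate, Tnfrsf9 was past 2-fold higher and Tnfsf8 and Tnfsf11 were past 2-fold lower, where 4.21% of 8655 genes were higher and 3.97% lower. Tnfrsf9 was at 8.41 (3.63 to 16.6) and 35.2 (28.8 to 42.6) CPM, with 22 of its 105 ACD UMIs in 1 cell. Tnfsf11 was at 56.7 (42.6 to 74.0) and 18.4 (13.9 to 24), a log2 ratio of -1.62 that was -1.62 again with whole sub-clusters. Tnfsf8 was at 37.8 and 18.4, a log2 ratio of -1.04 that was -0.26 with whole sub-clusters. Tnfrsf1b was at 110 and 73.4 CPM. Tnfrsf4 was low in δγT cells, at 4.2 and 5.36.

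Cells of the DETC gate, named for the δγT cells that reside in mouse epidermis, carried receptors in healthy skin. The gate uses no T cell receptor gene, and its markers differed between the libraries. Avil was at 527 CPM in control and 352 in ACD, Itgae at 604 and 419, Eomes at 0 and 40.6, and Ncr1 at 0 and 35.3. Tnfrsf9 was at 155 (114 to 206) CPM in control and 122 (94.9 to 154) in ACD, and its control level was second to that of Tregs with overlapping intervals. Tnfrsf1b was at 210 (162 to 268) and 163 (131 to 199). None of the 5 members compared in DETC was past 2-fold, where 8.91% of 5901 genes were higher and 7.41% lower.

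NK/ILC1 and ILC2 cells shared Tnfrsf18 at high levels. It was at 182 (162 to 203) CPM in ACD NK/ILC1 cells and was found in 31.4% of thinned cells, against 6 UMIs in the 7 control cells. In ILC2 cells it was at 201 (145 to 272) in control and 121 (78.9 to 177) in ACD. The ILC2 gate rests partly on absent CD3 UMIs, and its markers differed between the libraries. Il1rl1 was at 19.2 CPM in control and 107 in ACD, and Itgae at 335 and 163. Tnf in ILC2 cells was at 125 (81.4 to 183) and 60.4 (32.2 to 103), a log2 ratio of -1.04 (-2.13 to -0.03), and was the 1 of 2 members compared that was past 2-fold lower, where 10.7% of 4590 genes were (9.3% were higher). With sub-clusters, which held 212 and 86 cells, this ratio was -0.24. NK/ILC1 cells of ACD had Tnfrsf1b at 110 CPM, Tnfrsf9 at 70.8 and Tnf at 49.6.

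Myeloid cells were the other holders of Tnf. Langerhans-like cells had the highest level of any class, at 390 (319 to 472) CPM in 32 control cells and 410 (353 to 475) in 28 ACD cells. In both libraries its interval lay above that of the next class, and Tnf was found in 51.6% and 53.6% of thinned cells. CD3 UMIs were found in 21.9% and 32.1% of these cells, and without those the levels were 452 in 25 and 480 in 19 cells. A single cell held 35 of the 105 control UMIs and 40 of the 180 ACD UMIs. Mast cell-like cells were at 189 and 189, and dendritic cell (DC)-like cells at 153 (110 to 207) and 163 (143 to 185), where finer clusters gave a log2 ratio of -1.03. In ACD alone, 71 neutrophil-like cells were at 164 (116 to 225), 269 basophil-like cells at 82.1 (67.2 to 99.3), and a class of 128 cells led by Hp and Gm26917, with a median of 1397.5 UMIs per cell, at 208 (169 to 255).

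Cd40 was led by DC-like cells. It was at 52.2 (28.5 to 87.5) CPM in control and 117 (100 to 136) in ACD (log2 ratio 1.17, 0.38 to 2.07). Langerhans-like cells were at 48.2 and 34.2, and the Hp/Gm26917-led class at 65.8 in ACD. Of the 6 members compared in DC-like cells, Cd40, Tnfrsf4 and Tnfrsf9 were past 2-fold higher and 0 lower, where 11% and 2.79% of 5240 genes were. Of the 4 compared in Langerhans-like cells, Tnfrsf9 was past 2-fold higher (11.1 and 36.5) and Tnfrsf1b lower (48.2 and 22.8), where 7.91% and 9.35% of 5121 genes were. Without the cells that held a CD3 UMI, Tnfrsf9 had 0 UMIs in control and 2 in ACD (7.11 CPM), and Tnfrsf1b had 7 and 2 (36.0 and 7.11). Tnfrsf1b was highest in ACD neutrophil-like cells, at 216 (160 to 285), and in the Hp/Gm26917-led class, at 206 (167 to 252). Tnfrsf18 was at 64.3 (51.2 to 79.7) in ACD basophil-like cells.

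T cell transcripts were more frequent outside T cells in ACD. Cells with a Cd3d, Cd3e or Cd3g UMI were 1.86% of resident cells in control and 8.76% in ACD, and 6.53% and 13.2% of myeloid cells. In ACD each of the 9 T/NK/ILC markers had a UMI in DC-like, neutrophil-like, Schwann/glia-like, endothelial-like and melanocyte-like cells, among other classes. Their summed level in the classes named ran from 185 to 488 CPM, against 26.1 to 327 in control and 4268 in ACD T/NK/ILC-like cells. This sum can be high with little CD3: control Coch/Crabp1-led cells were at 868, with Cd3d, Cd3e and Cd3g together at 4.54. In the classes named, these CD3 genes alone ran from 82.5 to 298 CPM in ACD. In control they ran from 3.73 to 223, the highest in 4 neutrophil-like cells, and in ACD T/NK/ILC-like cells they were at 2247. The levels were therefore also taken without the cells that hold such a UMI, a choice made after seeing the data.

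Counted with all cells, members past 2-fold higher were 4 of 5 compared in Schwann/glia-like cells (5.37% of genes), 4 of 6 in endothelial-like cells (7.16%), 5 of 5 in VSMC-like cells, the vascular smooth muscle class (4.89%), and 4 of 7 in chondrocyte-like cells (3.02%). Past 2-fold lower was 1 of 6 in endothelial-like cells (Cd40, with 6.33% of genes) and 0 in the other 3 classes (2.69%, 5.59% and 2.11%). UMIs of Tnfrsf4 outside T cells lay mostly in cells with a CD3 UMI in several of these classes. In DC-like cells it was at 7.45 CPM in control and 63.3 in ACD, where 12 cells held its 93 UMIs and 1 of them held 32. Without CD3 cells it was at 7.54 and 2.77, with 3 UMIs in 120 ACD cells. Over all myeloid classes the ACD UMIs of Tnfrsf4 went from 122 in 841 cells to 8 in 730 cells, and the level from 27.0 to 2.22 CPM. In Schwann/glia-like cells Tnfrsf4 went from 46 UMIs to 1, in endothelial-like cells from 23 to 0, in melanocyte-like cells from 22 to 2 and in VSMC-like cells from 14 to 0. Thus the past 2-fold Tnfrsf4 ratios of these classes were not found in the cells without a CD3 UMI.

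The other members in these counts differed by class once CD3 cells were left out. In Schwann/glia-like cells none of the 4 stayed past 2-fold: besides Tnfrsf4, Tnfrsf9 had 0 UMIs in control and 1 in ACD, Tnfrsf1b 3 and 3 (log2 ratio -0.37), and Tnfrsf18 2 and 5 (0.96). In VSMC-like cells Tnf had 0 and 7, Tnfrsf9 4 and 7, Tnfrsf18 1 and 5, and Tnfrsf1b 1 and 4 UMIs. In endothelial-like cells Tnfrsf9 had 0 and 3 UMIs, and Tnfrsf18 had 2 and 5 (log2 ratio 1.23, -1.38 to 4.62). Tnfrsf1b, with 2 and 14 UMIs, was at 1.68 and 10.98 CPM (log2 ratio 2.71, 0.59 to 5.89). In chondrocyte-like cells the log2 ratios changed little and stayed past 2-fold. They were 1.53 for Tnf (12 and 26 UMIs), 2.00 for Tnfrsf4 (12 and 36) and 1.53 for Tnfrsf1b (25 and 54). The largest, 4.66 for Tnfrsf9, rests on 1 control and 19 ACD UMIs. The ACD levels ran from 0.803 CPM for Tnfrsf9 to 2.28 for Tnfrsf1b.

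In myeloid cells other receptors kept part of their level. Over myeloid classes in ACD, Tnfrsf9 was at 27.8 CPM with all cells and 16.4 without CD3 cells, Tnfrsf18 at 32.0 and 26.3, and Tnfrsf1b at 57.0 and 53.5. Cd40 was at 48.2 and 48.2. In DC-like cells without CD3 UMIs, Cd40 was at 52.8 in control and 126 in ACD (log2 ratio 1.25, 0.45 to 2.16), and Tnfrsf9 at 15.1 and 42.5 (1.49, 0.04 to 3.43) on 4 and 46 UMIs.

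**Figure D4:**
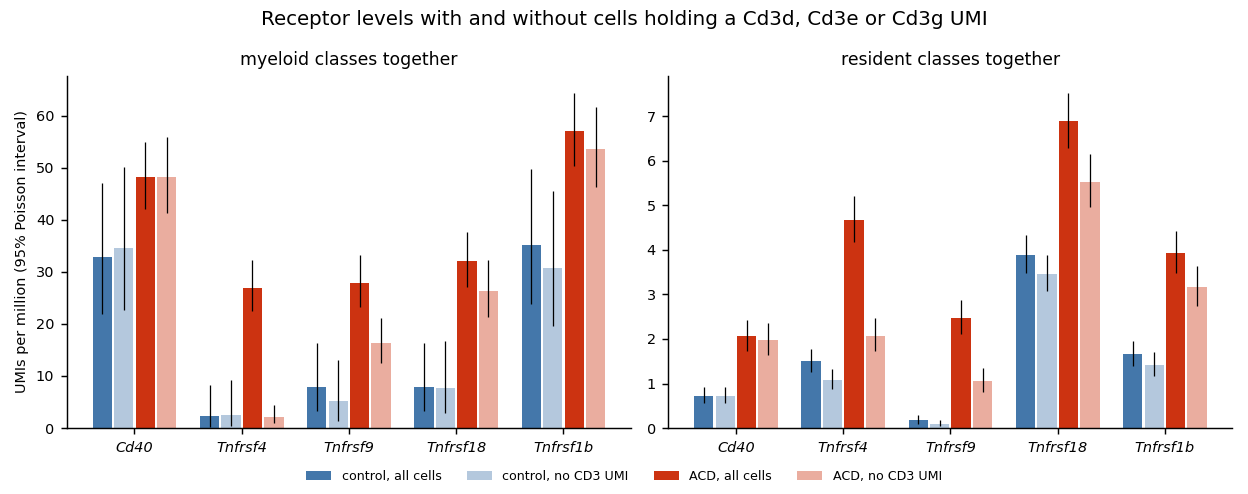
Level (CPM, with exact Poisson intervals) of the 5 receptors over all myeloid classes (left) and all resident classes (right), in control (blue) and ACD (red), with all cells (dark) and without cells holding a Cd3d, Cd3e or Cd3g UMI (pale). The ACD bar of Tnfrsf4 goes from 27.0 to 2.22 in myeloid cells, whereas Cd40 stays at 48.2.

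Among resident classes, keratinocyte-like cells carried Tnfrsf4 and Tnfrsf18 in both libraries. Tnfrsf4 was at 34.0 (27.1 to 42.0) CPM in control and 38.0 (29.6 to 48.0) in ACD, in 55 of 179 and 43 of 136 cells, and without CD3 cells it was at 31.2 and 31.3. Tnfrsf18 was higher in ACD but not past 2-fold, at 41.2 (33.6 to 49.9) and 58.6 (48.0 to 70.7), and at 38.7 and 61.3 without CD3 cells (log2 ratio 0.67, 0.23 to 1.10). In thinned cells Tnfrsf4 was found in 6.78% and 6.45% of keratinocyte-like cells, above the 0.347% of ACD chondrocyte-like cells. Keratinocyte-like cells held 22.7% of all Tnfrsf4 UMIs in control. Of the 3 members compared there, Tnf was past 2-fold higher, at 6.80 and 15.2, but at 7.03 and 9.14 without CD3 cells, and 0 were lower, where 5.04% and 5.27% of 10895 genes were.

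Cd40 was higher in ACD in 2 stromal classes. In dermal fibroblast (dFB)-like cells it was at 1.14 (0.769 to 1.63) CPM in control and 6.46 (5.24 to 7.88) in ACD (log2 ratio 2.50, 1.90 to 3.15) that was 2.43 without CD3 cells. Of the 97 ACD UMIs, 91 lay in 1 cluster of 557 ACD and 6 control cells that is led by Saa3 and Cxcl9, where the level was 12, so control cells of that kind are nearly absent. In pericyte-like cells Cd40 had 1 UMI in control and 16 in ACD, at 0.811 and 15.8 CPM. Endothelial-like cells went the other way, at 13.0 (7.42 to 21.1) and 5.07 (2.19 to 10), on 16 and 8 UMIs.

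In dFB-like cells 7 of the 8 members compared were past 2-fold higher, where 7.06% of 13734 genes were, and 0 were lower, where 2.28% were, but their levels were low. Apart from Cd40, the ACD levels of the members compared ran from 1.27 CPM for Tnfsf11 to 5.73 for Tnfrsf1b, the 1 not past 2-fold. For Tnfsf8, 20 of the 38 ACD UMIs were in 1 cell. Without CD3 cells the levels of Tnf, Tnfrsf4, Tnfrsf9 and Tnfsf8 fell in both libraries and their ratios stayed past 2-fold. So did those of Tnfsf11 (log2 ratio 4.13, on 1 and 9 UMIs) and Tnfrsf18 (1.90, on 12 and 23 UMIs). Tnf was then at 0.392 CPM in control and 1.99 in ACD (log2 ratio 2.34, against 1.98 with all cells), and Tnfrsf4 at 0.196 and 1.30 (2.73, against 2.74). Tnfrsf9 was at 0.117 and 1.30 (3.47, against 3.68) on 3 and 17 UMIs, and Tnfsf8 at 0.0783 and 0.459 (2.55, against 3.06) on 2 and 6 UMIs. Clusters of this class were filled unevenly, with 1647 control and 140 ACD, 826 and 101, 6 and 557, and 595 and 416 cells. In the last, led by Sfrp4, log2 ratios with all cells were 0.18 for Tnfrsf18, 0.53 for Tnfsf11, 1.11 for Tnfrsf4 and 1.15 for Tnf. There Tnfsf8 was at 2.80, Tnfrsf9 at 3.65 and Cd40 at -1.05, the last on 8 and 4 UMIs. How far this make-up enters the ratios of the class was not tested. In ACD chondrocyte-like cells, Tnf was at 1.16, Tnfrsf4 at 1.67 and Tnfrsf9 at 0.776 CPM. The part of free or co-captured T cell RNA in these low levels was not tested.

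**Figure D5:**
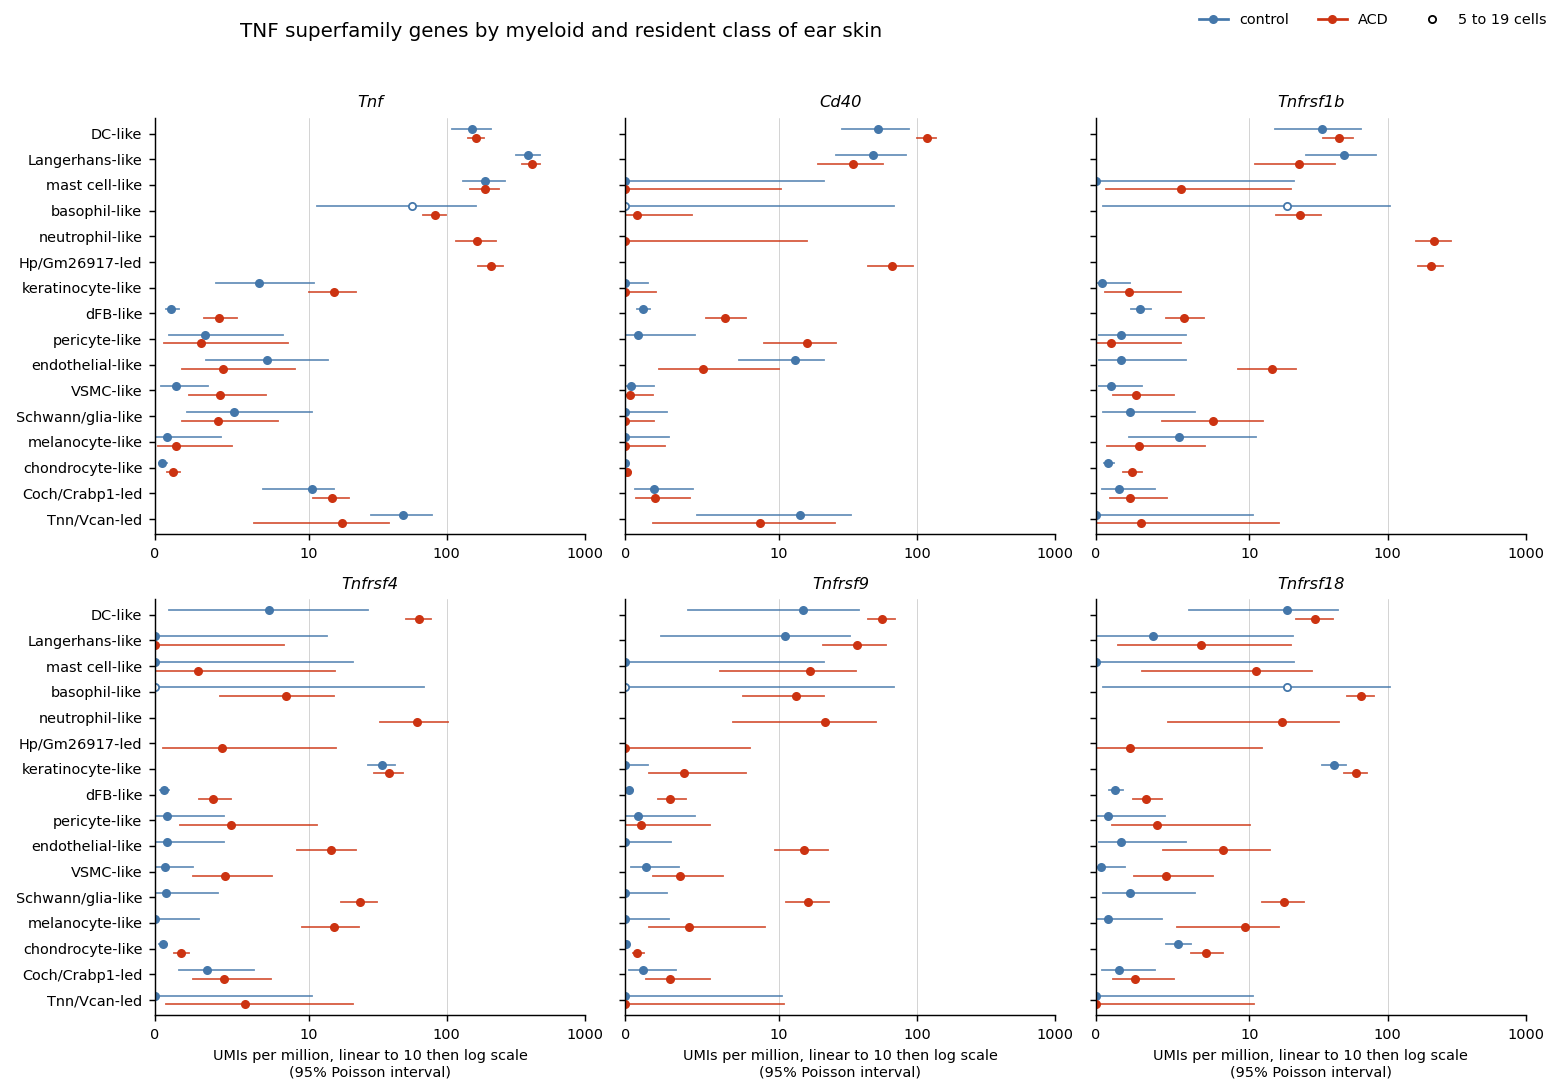
Level (CPM, linear up to 10 and logarithmic above) of Tnf and 5 receptors in 6 myeloid and 10 resident classes, control in blue and ACD in red, with exact Poisson intervals as lines, open circles for classes of 5 to 19 cells and no point below 5. Tnf is highest in Langerhans-like cells, Cd40 in DC-like cells and Tnfrsf1b in neutrophil-like and Hp/Gm26917-led cells, and keratinocyte-like cells have Tnfrsf4 at 34.0 and 38.0 and Tnfrsf18 at 41.2 and 58.6 CPM in control and ACD.

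Some members had resident sources in both libraries. Tnfsf8 was at 18.7 (11.8 to 28.0) CPM in control pericyte-like cells and 15.8 (9.04 to 25.7) in ACD, and it was at 19 and 16 without CD3 cells. Tnf was at 10.6 and 14.8 in cells led by Coch and Crabp1. In cells led by Tnn and Vcan it was past 2-fold lower in ACD, at 48.5 (28.3 to 77.7) in 83 control cells and 17.5 (6.44 to 38.2) in 61 ACD cells, on 17 and 6 UMIs (log2 ratio -1.47, and -1.46 without CD3 cells). Tnfrsf18 was at 5.32 and 7.17 in chondrocyte-like cells (log2 ratio 0.43, 0.12 to 0.74) and was not at 0 in the class that stands for background.

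The binding partners of these genes were spread differently. Tnfrsf1a, the broadly expressed TNF receptor with a death domain, was highest in pericyte-like cells, at 282 CPM in control and 246 in ACD. Tnfsf9, the ligand of 4-1BB, was highest in Tnn/Vcan-led cells (1324 and 894), followed by DC-like (674 and 640), Coch/Crabp1-led (483 and 459) and pericyte-like cells (367 and 238), among classes of at least 20 cells in both libraries. Tnfrsf8 (CD30), the receptor of CD30L, had 1 UMI in control and 39 in ACD over all cells, a log2 ratio of 5.17 (2.61 to 10.5) above that of Fasl (5.16), and Tnfsf18, the ligand of GITR, had 4 and 4. Tnfrsf11a, the receptor RANK, was at 30.8 and 27.9 in endothelial-like cells, and Tnfrsf11b, the decoy receptor osteoprotegerin, at 43.6 and 38.4 in chondrocyte-like cells. Ltb, which forms a heterotrimer with lymphotoxin α, was at 7.45 in control DC-like cells, on 2 UMIs in 1 cell, and at 103 in ACD DC-like cells, of which 20.5% held a CD3 UMI. In Langerhans-like cells it went the other way, at 81.6 and 22.8 CPM on 22 and 10 UMIs.

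Across 59 class and library points with at least 20 cells, the genes most like each member were found by Pearson correlation among 13392 genes, as a description, since points share libraries and depth. For Tnfrsf4 they were Cd5, Ctla4 and Cd6 (r = 0.94, 0.94 and 0.92), for Tnfrsf9 Lck, Cd2 and Ikzf2 (0.91, 0.90 and 0.85), and for Tnfrsf18 Slain1, Pglyrp2 and Cd27 (0.92, 0.89 and 0.89). For Tnfsf8 they were Tnfsf11, Cd96 and Zap70 (0.89, 0.85 and 0.85), for Tnfsf11 Xlr4a, Tnfsf8 and Cd40lg (0.89, 0.89 and 0.88), and for Cd40lg Tnfsf11, Cd6 and Tnfsf8 (0.88, 0.85 and 0.83). For Cd40 they were the antigen-presentation genes H2-DMb2, Cd86 and H2-DMb1 (0.84 each), for Tnfrsf1b Fmnl1, Itgb2 and Ptprc (0.90, 0.88 and 0.88), and for Tnf Arl4c, Lcp1 and Fam105a (0.89, 0.89 and 0.88). Tnfsf4, with 26 UMIs in all, had too few for this.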

How the data were processed

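The 10 genes, the 48 other pathway genes and the gates were chosen with earlier results of these data known. The authors deposited UMI counts as raw whole numbers for every gene and barcode, without normalization, made with Cell Ranger (3.1.0 per the labels) on mm10. Barcodes with over 200 and under 5000 genes, at most 25000 UMIs (the methods print this limit as a lower one) and under 8% mitochondrial UMIs were kept, which left 12213 of 12895 control and 11665 of 13163 ACD barcodes, more than the cell numbers given in the study. The libraries were clustered together (2000 variable genes without TNF superfamily or pathway genes, 30 principal components, 20 neighbors, Leiden resolution 1) in Python 3.11.15 with scanpy 1.11.5 and leidenalg 0.10.2. A cluster was named from at least 3 markers at 2-fold in 10% of its cells, otherwise by its 2 leading genes. Clusters with markers of 2 classes were set apart as mixed (107 control and 289 ACD cells). These names were rebuilt here and need not match those of the study. Gates needed at least 1 UMI of each defining gene set, except at least 2 UMIs for the δγT and NK/ILC1 gates and 3 beside Itgae for DETC. Genes named are the 10 members, direct binding partners in the classes where they are highest, the 3 other pathway genes with the largest ratio each way among those past 2-fold, and the 3 genes most like each member. Where a gene had 0 UMIs, 3 UMIs were taken as its limit. Doublets were kept, and Scrublet calls (571 control and 384 ACD cells) were left out as an alternative. Depth sets the precision: a class of few cells has wide intervals. Levels and intervals were run on simulated class sums drawn as independent Poisson counts. That run left out the clumping of UMIs in single cells, so it cannot tell how the intervals fare with it. Positions are from GENCODE M21 on GRCm38. Likeness was taken on log2(CPM + 10).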

Additional observations from a re-analysis of the deposited data

Results flagged for a closer look

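Tnfsf8 went opposite ways in 2 gates: its log2 ratio of ACD over control was 1.19 in the CD4 gate and -1.04 in the δγT gate. The difference between the gates was not tested, since each library is 1 sample. With whole sub-clusters in place of the gates the log2 ratios were 0.55 and -0.26.

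The 1498 ACD barcodes outside the limits on genes, UMIs and mitochondrial UMIs also held UMIs of the members, above the level in the 682 such control barcodes. Among receptors, Tnfrsf4 was at 46.4 CPM in these ACD barcodes and 6.57 in the control ones, Tnfrsf9 at 24.6 and 0.292, Tnfrsf18 at 34.0 and 10.1, Tnfrsf1b at 13.0 and 1.46, and Cd40 at 4.46 and 1.17. Among ligands, Tnf was at 20.1 and 5.26 CPM, Tnfsf8 at 7.10 and 1.17, and Tnfsf11 at 5.13 and 1.17. Cd40lg was at 1.67 CPM in ACD on 45 UMIs, with 0 UMIs in control. Of the ACD barcodes, 733 were past the mitochondrial limit and 617 past the UMI limit.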

How the results depend on the processing

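No paired analysis was possible because each group is 1 library, and for the same reason no replicate could be left out. Over all cells, 29 of 30 values moved by less than their counting interval, and Tnfrsf4 had a log2 ratio of 3.90 with all deposited barcodes. Within classes this held for 650 of 666 values. The shares of a member's ACD UMIs held by a class depended more on processing: 79 of 110 values stayed and 31 moved. The log2 ratio of Tnfrsf9 in T/NK/ILC-like cells was 1.37 as a mean over cells. With cells holding a CD3 UMI left out, an alternative chosen after seeing the data, the direction reversed for Tnfrsf4 in DC-like cells (-1.44) and in Schwann/glia-like cells (-0.37), on 3 and 1 ACD UMIs, and the cause was not tested. Tnfrsf1b in Schwann/glia-like cells also changed sign (-0.37), on 3 ACD UMIs. Size factors by median of ratios left 100 of 100 within-class values inside their counting interval. Of the other pathway genes in T/NK/ILC-like cells, the number past 2-fold higher was 1 and lower 0 with at least 20 UMIs expected, and a fold of 1.5 gave 8 and 5. The shares of cells with a UMI depend on the thinning depth, and each of the 18 values moved. Depth limits the CD8, NK/ILC1 and Treg gates most, through their few control cells.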
